A study of Mus musculus with 12 samples.

Results

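Cultured fibroblast-like synoviocytes of mice were compared between the resolution and the homeostasis groups of a TNF arthritis study, which is 8 of its 12 libraries, 4 in each group. The 4 homeostasis libraries, also named WT, came from mice on water with 5% sucrose for 3 weeks. The 4 resolution libraries, also named DOX OFF, came from mice given doxycycline at 1 mg/ml in that water for 3 weeks, after which the drug was withdrawn. Both groups therefore received sucrose, and only the resolution group received doxycycline. The labels describe all cells as synovial fibroblasts of mice with arthritis induced by TNF, although the control libraries carry the name WT. The transgene and its promoter, the strain, the age and sex of the animals, the interval between withdrawal and harvest, the passage of the cultures and any pooling of animals are unstated in the labels. The 4 inflammation libraries of the series were not compared. They shared in the choice of genes to test, the scaling and the estimate of the spread between replicates. The design text names the study's question as the resolution phase and the effect of activated synoviocytes on endothelial cells.

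Fibroblast-like synoviocytes are the mesenchymal cells of the synovial membrane. Those of the lining secrete lubricin and hyaluronan into the joint fluid, and those of the sublining support vessels and lay down collagen. Under TNF they make cytokines, chemokines and matrix proteases, and TNF can also induce interferon-beta, whose receptor switches on a large set of antiviral genes. Tetracycline-responsive transgenes are switched by doxycycline, so that withdrawal of the drug is used to end the expression of the transgene.

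RNA was enriched for poly(A) and sequenced as read pairs, and the deposited table gave estimated read counts for each gene symbol. Library totals ran from 18120745 to 34971537 counts, so that 0 counts in a library allowed a level of up to 0.0858 to 0.1656 CPM, for counting error only. CPM, the unit of all levels, is a count relative to the library total after scaling by the trimmed mean of M-values. Entries that shared a name were summed, and genes on X and Y were left out, which left 14591 genes to test. Every adjusted p below is a Benjamini-Hochberg value over these genes from the quasi-likelihood test (edgeR), levels are mean ± SD with n = 4 unless given per library, and a log2 fold change is resolution minus homeostasis with its standard error (SE). Nothing in the labels says whether the 4 libraries of each group are separate mice or separate cultures, so the p-values measure only the spread between these libraries, which may be technical.

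The groups differed in sex-linked transcripts, which the labels do not mention. Ddx3y, Eif2s3y, Kdm5d and Uty, which lie on the Y chromosome, had 0 counts in every resolution library, and means of 24.1, 26.5, 7.9 and 8.65 CPM in homeostasis. Xist, the RNA that coats the inactive X chromosome, ran from 126 to 276 CPM in resolution and from 6.94 to 13.7 CPM in homeostasis. The 2 groups did not overlap in any of these 5 genes, so the sex of the cells and the treatment cannot be told apart in any result below. The mouse Tnf entry was lower after withdrawal, at 1.82, 2.53, 5.32 and 6.46 CPM in homeostasis 1 to 4 and 0.264, 0.48, 0.14 and 0.386 CPM in resolution 1 to 4. Its log2 fold change was -3.64 ± 0.48 (SE; adjusted p = 3.81e-06), and every resolution library was below every homeostasis library.

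Fold changes followed the GC content of the transcripts, taken here from the longest GENCODE transcript of each gene, and the trend has to be read beside every other result. Each library was given a GC slope, the change of its log2 CPM, relative to the mean of the 8 libraries, per 10 percentage points of GC. The slopes were 0.0962, 0.1159, 0.3389 and 0.5064 in homeostasis 1 to 4. They were −0.2964, 0.0613, −0.4336 and −0.3887 in resolution 1 to 4. All 4 homeostasis slopes were therefore above all 4 resolution slopes, but resolution 2 stood nearer to homeostasis 1 than to any other resolution library. The group means were 0.264 ± 0.195 and −0.264 ± 0.225 (SD, n = 4), a difference of −0.529, with p = 0.0286 in a 2-sided exact permutation test, the smallest value that 4 against 4 libraries can give. Without any 1 homeostasis library the exact permutation p was 0.0571.

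The GC decile with the lowest content, 31.0 to 41.5%, had a median log2 fold change of 0.86, and 67.4% of its genes passed as higher against 7.3% as lower. The decile with the highest GC content had a median of −0.26, with 11.4% higher and 31.3% lower. Across 13689 genes, which are not independent replicates, the Spearman correlation of GC content with the fold change was −0.395, as a description. A second fit used offsets from a smooth curve of each library on GC content, written as "with GC offsets" below, and the medians of the deciles then lay between 0.03 and 0.14. Resolution 2 and homeostasis 1 and 2 have similar slopes, and a comparison of that library with those 2 gave a correlation with GC content of −0.011. Its medians still moved with GC content, from 0.44 in the lowest decile to −0.283 in the fifth and 0.222 in the highest. That comparison was chosen after seeing the data, has 1 resolution library and assumes that it varies as the other groups do. The origin of the trend was not tested.

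**Figure D1:**
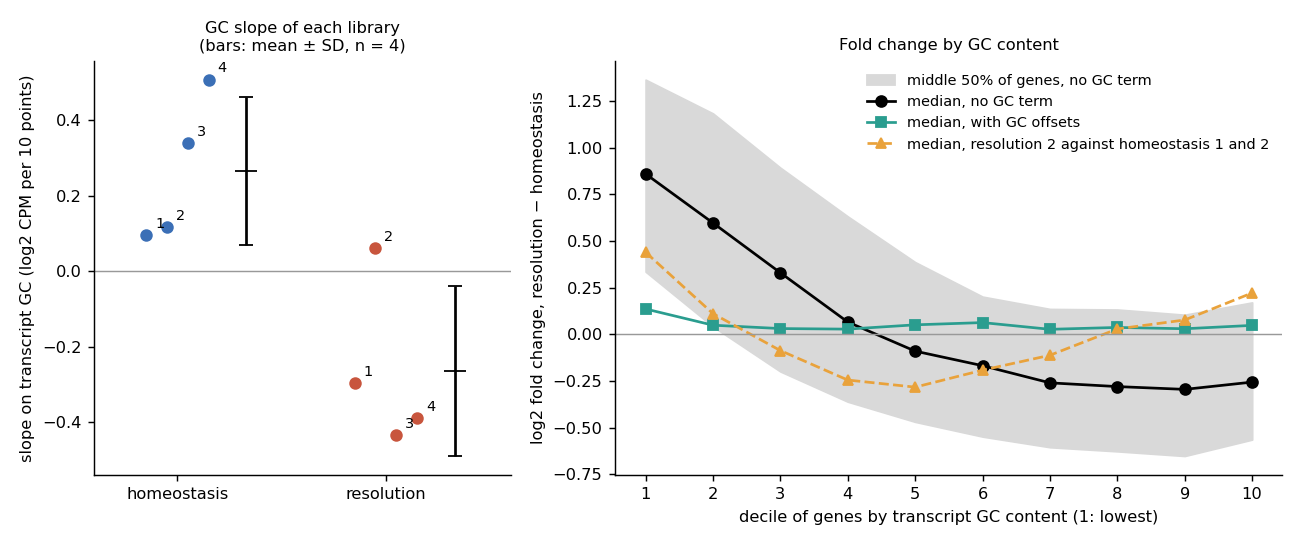
Left, the GC slope of each of the 8 libraries (points, numbered by replicate) with the group mean ± SD; right, the median log2 fold change in each decile of genes by transcript GC content, with the middle 50% of genes in grey. The slopes of homeostasis lie above those of resolution, resolution 2 lies at 0.0613, and the median falls from 0.86 in the lowest decile to −0.26 in the highest unless GC offsets are used.

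In all, 7675 genes passed, 52.6% of those tested. Of these, 4013 (27.5%) were higher and 3662 (25.1%) lower in resolution, and 2218 (15.2%) and 1157 (7.93%) differed by at least 2-fold. The median GC content was 44.0% for the genes at least 2-fold higher, 52.4% for those at least 2-fold lower and 49.8% for all genes tested. The fit with GC offsets called 7445 genes (51%), 4116 as higher (28.2%) and 3329 as lower (22.8%), and at least 2-fold differences numbered 1687 (11.6%) upward and 1031 (7.07%) downward. Both fits called 5665 genes (38.8%) in the same direction, 3045 higher (20.9%) and 2620 lower (18%), and by at least 2-fold in both 1417 (9.71%) and 838 (5.74%). Only 16 (0.11%) passed in opposite directions, all higher without the offsets and lower with them. In 6280 genes (43%) the 2 groups did not overlap, 3192 (21.9%) with resolution higher. Large changes were mostly shared, since 91.1% of the genes at least 2-fold higher and 96.9% of those at least 2-fold lower passed in the same direction with GC offsets. The counts of gene lists below are to be read against these shares, since a large share of all genes passed.

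Interferon-stimulated genes rose. Of the 36 listed genes tested, 34 rose and 1 fell, with a median log2 fold change of 3.13, and 2.90 with GC offsets, where 33 rose and 1 fell. The median over all genes tested was 0.003, and 0.064 with GC offsets. Their summed level ran from 461 to 918 CPM in homeostasis and 3458 to 4046 CPM in resolution. Oas2, a sensor enzyme that makes the activator of RNase L, was measured at 0, 0.285, 0.347 and 1.01 CPM in homeostasis 1 to 4 and 23.9, 29.7, 25.7 and 27.4 CPM in resolution 1 to 4, a log2 fold change of 5.99 ± 0.37 (SE; adjusted p = 1.60e-10). Ifit1, which binds foreign RNA caps, was measured at 1.67, 2.69, 6.94 and 12.5 CPM in homeostasis 1 to 4 and 279.6, 162, 212 and 261 CPM in resolution 1 to 4, with 5.27 ± 0.51 (SE; adjusted p = 4.43e-06). All 4 resolution libraries were above all 4 homeostasis libraries in both genes, which was a condition for picking them as largest rises. In both, homeostasis 3 and 4 were above homeostasis 1 and 2.

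That order within homeostasis held for most of the list. In 34 of the 36 genes both homeostasis 3 and 4 were above homeostasis 1 and 2, against 27.7% of all genes tested, and these are also the 2 libraries with the steepest GC slopes in the group. Among the 10 largest rises of genes with a mean of at least 5 CPM in resolution and no overlap between groups, besides Oas2 and Ifit1, Gvin1 and Iigp1 encode interferon-inducible GTPases, Gbp9 a guanylate-binding protein, Trim30a a ring-finger protein of the TRIM family, Ifi44 an interferon-induced protein, Slfn5 a Schlafen protein and Phf11b a PHD-finger protein. Trim30a was measured at 0.365, 0.222, 0.636 and 0.779 CPM in homeostasis 1 to 4 and 25.7, 17.8, 25.3 and 25.9 CPM in resolution 1 to 4, and its log2 fold change was 5.61 ± 0.29 (SE; adjusted p = 1.24e-11). Gvin1 went from 2.08 ± 1.49 to 111 ± 25.1 CPM with 5.79 ± 0.40, Gbp9 from 0.244 ± 0.202 to 11.7 ± 3.05 CPM with 5.66 ± 0.37 and Iigp1 from 1.44 ± 1.02 to 46.4 ± 6.26 CPM with 5.03 ± 0.32. Several of these families have near-identical members, so that reads may be divided among them. The other gene of these 10, Ces1g, encodes a carboxylesterase and went from 0.196 ± 0.128 to 9.71 ± 1.12 CPM with 5.45 ± 0.32.

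Irf7 and Bst2, listed genes with GC-rich transcripts, were named by a rule that picked rises of such genes. Their direction is therefore no test of the GC trend. Irf7, the transcription factor that amplifies type I interferon, has a transcript with 55.4% GC and was measured at 2.92, 5.64, 21.8 and 34.3 CPM in homeostasis 1 to 4 and 343, 361, 219 and 293 CPM in resolution 1 to 4. Its log2 fold change was 4.24 ± 0.67 (SE; adjusted p = 4.07e-04), and 4.64 with GC offsets. Bst2, or tetherin, a membrane protein that holds budding virus at the cell surface, was measured at 16.3, 11.7, 62.3 and 67.8 CPM in homeostasis 1 to 4 and 449.9, 453, 347 and 369.97 CPM in resolution 1 to 4, with 3.36 ± 0.51 and 3.76 with GC offsets. Stat2 (1.85 ± 0.19) and Irf9 (1.14 ± 0.22), which relay the interferon signal to the nucleus, rose as well. Samhd1, which degrades deoxynucleotides, was the listed gene that fell, by 0.47 on the log2 scale, and Cmpk2 did not pass at 0.98 ± 0.47.

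Promoters of this list are shown because the interferon signal acts through a short DNA element, the interferon-stimulated response element (ISRE), here searched as GAAA, any 2 bases and GAAA on both strands. RefSeq promoter entries were matched by symbol for 10986 of the tested genes, 1 entry a gene, and each window runs from 250 bases before to 50 bases after the start. A match was found in 333 of the 10986 windows (3.03%), in 72 of 951 genes at least 2-fold higher in both fits (7.57%), in 21 of 616 at least 2-fold lower in both (3.41%) and in 14 of 28 windows of the interferon list (50%). The list's share is a description, and a match is no proof of a site in use. The 200 bases before the start are given for the 3 genes with matches there that had the highest CPM in resolution, in the build GRCm38.p6, read 5′ to 3′ on the strand of the gene, with matches in capitals; those of Bst2 and those of Isg15 overlap one another, and those of Ifit1 lie on the opposite strand.
Bst2 (chr8:71537473-71537672, minus strand): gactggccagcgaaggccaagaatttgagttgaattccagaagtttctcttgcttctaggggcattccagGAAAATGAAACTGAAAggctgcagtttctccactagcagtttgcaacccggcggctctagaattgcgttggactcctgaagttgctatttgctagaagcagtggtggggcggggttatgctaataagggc
Ifit1 (chr19:34640689-34640888, plus strand): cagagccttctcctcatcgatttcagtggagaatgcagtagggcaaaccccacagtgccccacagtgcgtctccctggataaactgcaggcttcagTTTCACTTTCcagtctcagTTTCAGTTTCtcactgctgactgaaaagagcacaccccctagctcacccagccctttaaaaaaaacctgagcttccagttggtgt
Isg15 (chr4:156200819-156201018, minus strand): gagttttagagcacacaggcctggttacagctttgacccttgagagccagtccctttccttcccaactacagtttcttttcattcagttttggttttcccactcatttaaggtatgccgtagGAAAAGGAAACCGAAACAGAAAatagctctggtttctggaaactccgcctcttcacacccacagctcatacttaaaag
The first matched base lay 130 and 124 bases before the start in Bst2, 104 and 85 in Ifit1, and 78, 72 and 66 in Isg15. Isg15, a ubiquitin-like protein, went from 21 ± 17.5 to 197 ± 37.5 CPM with 3.24 ± 0.57.

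Genes of antigen presentation by MHC class I rose with the interferon list. Here 13 of 17 tested members rose and 1 fell, with a median of 1.20. With GC offsets 14 rose and 3 fell, with a median of 1.46. In 14 of the 17 genes homeostasis 3 and 4 were both above homeostasis 1 and 2, against 27.7% of all genes tested. B2m, the invariant light chain, was measured at 249, 288, 369 and 368 CPM in homeostasis 1 to 4 and 1228, 1435, 1558 and 1351 CPM in resolution 1 to 4, a log2 fold change of 2.13 ± 0.14 (SE; adjusted p = 3.72e-10). The heavy chain H2-D1 went from 254 ± 97.8 to 924 ± 125 CPM with 1.86 ± 0.20 (SE; adjusted p = 3.57e-07), and the immunoproteasome subunit Psmb9 from 1.14 ± 0.204 to 5.14 ± 0.674 CPM with 2.17 ± 0.24. No library of one group reached the range of the other in these 3 genes. Calr, a chaperone of the endoplasmic reticulum that also loads class I molecules, fell, from 5531 ± 1089.7 to 2318 ± 317 CPM with -1.25 ± 0.14 (SE; adjusted p = 8.06e-07). Its high count keeps the summed level of the list similar in both groups, at 8189.7 to 11416 CPM in homeostasis and 8552 to 9389.8 CPM in resolution. The class I heavy chains are near-identical, so the division of reads between H2 genes is uncertain. A match to the ISRE was found in 3 of 15 windows of this list (20%).

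Complement genes moved in both directions: 11 of 20 tested members rose and 5 fell, and 11 rose and 5 fell with GC offsets, of which 10 and 5 are the same genes. Serping1, the C1 inhibitor, went from 165 ± 30.8 to 1022 ± 141 CPM with 2.63 ± 0.16, and the protease C1s1 from 74.6 ± 10.3 to 429 ± 57.4 CPM with 2.52 ± 0.16. The 5 that fell were Cfd (-4.34 ± 0.42), C1qa (-2.52 ± 0.65), C1qb (-3.78 ± 0.67), C1qc (-2.76 ± 0.57) and C3ar1 (-2.05 ± 0.59). Cfd went from 4.07 ± 0.909 to 0.2 ± 0.12 CPM. With a filter of a mean of at least 5 CPM, 10 members rose and 0 fell. With only homeostasis 3 and 4 as controls, 9 rose and 3 fell. The C1q chains and C3ar1 are made chiefly by macrophages and Cfd, or adipsin, by fat cells, whose markers are given further below.

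Cytokines and chemokines did not move as 1 group. Of 32 tested, 12 rose and 11 fell, and the median was -0.08, or 0.08 with GC offsets. Ccl11, eotaxin, was measured at 5.37, 5.74, 3.7 and 3.71 CPM in homeostasis 1 to 4 and 62.8, 75.3, 107 and 89.97 CPM in resolution 1 to 4, with 4.17 ± 0.24 (SE; adjusted p = 8.09e-11). Ccl8, another attractant of monocytes and eosinophils, went from 9.2 ± 3.92 to 133 ± 7.88 CPM with 3.86 ± 0.22, and Tslp, an epithelial-type alarmin, from 9.16 ± 2.36 to 44.9 ± 9.7 CPM with 2.30 ± 0.21. All 3 rose without overlap between groups. Ccl20, which attracts Th17 cells through CCR6, fell, at 142, 142, 185 and 157 CPM in homeostasis 1 to 4 and 34, 31.6, 30.5 and 35.4 CPM in resolution 1 to 4, with -2.25 ± 0.16 (SE; adjusted p = 1.36e-09). It is a low-GC transcript that fell against the trend, and its value with GC offsets was -2.98. Ccl3, a macrophage chemokine, fell from 9.57 ± 4.43 to 0.836 ± 0.573 CPM with -3.48 ± 0.51. Ccl3 was named by a rule that picked falls in the third of genes with the lowest GC content. Its direction is therefore no test of the GC trend. Il6 (0.31 ± 0.19, adjusted p = 0.174) and Csf1 (-0.16 ± 0.14, adjusted p = 0.343) did not pass.

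Of the TNF receptor and NF-kB genes, 14 of 24 fell and 6 rose, with a median of -0.62, and -0.39 with GC offsets, where 13 fell and 5 rose. Traf1, an adaptor of TNF receptor 2 and a target of NF-kB, was measured at 1.72, 1.39, 6.3 and 6.46 CPM in homeostasis 1 to 4 and 0.264, 0.192, 0.0935 and 0.241 CPM in resolution 1 to 4, with -4.29 ± 0.58 (SE; adjusted p = 4.94e-06). Ptx3, a soluble pattern receptor, fell from 2371 ± 336 to 935 ± 70.7 CPM with -1.34 ± 0.12, Sod2, the mitochondrial superoxide dismutase, from 456 ± 104 to 224 ± 9.46 CPM with -1.02 ± 0.14, and Tnip1, an inhibitor of NF-kB signalling, from 326 ± 78.5 to 150.2 ± 22 CPM with -1.12 ± 0.16. In 19 of the 24 genes homeostasis 3 and 4 were both above homeostasis 1 and 2. Saa3, an acute-phase protein of fibroblasts and macrophages that is induced by TNF, was an exception to the direction of this list. It was measured at 1125, 1403, 3162 and 2994 CPM in homeostasis 1 to 4 and 4529.6, 4992, 5067 and 5079 CPM in resolution 1 to 4, with 1.18 ± 0.24 (SE; adjusted p = 3.84e-04), and homeostasis 1 and 2 were below homeostasis 3 and 4.

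In the prostaglandin list 6 of 14 tested members rose and 2 fell, with the same counts with GC offsets, where 4 of the rises and both falls are the same genes. Pla2g4a, the phospholipase that frees arachidonic acid, rose from 107 ± 16 to 381 ± 82.6 CPM with 1.83 ± 0.16. Both cyclooxygenases rose, Ptgs1 with 1.25 ± 0.17 and Ptgs2 with 1.38 ± 0.19. Hpgd, which degrades prostaglandins, rose with 1.70 ± 0.21, and Ptgis, the prostacyclin synthase, fell from 14.5 ± 3.73 to 4.22 ± 0.532 CPM with -1.77 ± 0.20.

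Genes of cell division fell together. All 26 mitosis genes tested fell, with a median of -2.91, and -2.996 with GC offsets, where all 26 fell again. Their summed level ran from 1870.1 to 2238 CPM in homeostasis and 228 to 302 CPM in resolution. Plk1, a kinase that drives entry into mitosis, was measured at 132, 143, 142 and 134 CPM in homeostasis 1 to 4 and 11.2, 11.4, 7.85 and 9.45 CPM in resolution 1 to 4, with -3.79 ± 0.15 (SE; adjusted p = 1.52e-12). Cdc20, which activates the anaphase-promoting complex, was measured at 154, 118, 147 and 179 CPM in homeostasis 1 to 4 and 14, 14.1, 12.3 and 13.7 CPM in resolution 1 to 4, with -3.47 ± 0.16 (SE; adjusted p = 3.76e-12). Aurka, a spindle kinase, fell from 106 ± 4.58 to 10.6 ± 0.567 CPM with -3.33 ± 0.14, and the checkpoint kinase Bub1b from 94 ± 18.5 to 6.68 ± 0.864 CPM with -3.81 ± 0.17. In all 26 genes every resolution library was below every homeostasis library, which held for 3088 (21.2%) of all genes tested. Ska1, Pif1, Troap and Ankle1, which were among the 10 largest falls of genes with a mean of at least 5 CPM in homeostasis and no overlap between groups, are a kinetochore protein, a DNA helicase, a spindle protein and a nuclease. Ska1 was measured at 15, 17, 10.9 and 10.5 CPM in homeostasis 1 to 4 and 0.476, 0.432, 0.468 and 0.964 CPM in resolution 1 to 4.

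DNA replication genes fell with them: 36 of 37 fell and 1 rose in both fits, with a median of -2.24, and -2.23 with GC offsets. Mcm5, a subunit of the replicative helicase, was measured at 158, 166, 169.8 and 199 CPM in homeostasis 1 to 4 and 17.9, 21.3, 16.8 and 18.8 CPM in resolution 1 to 4, with -3.21 ± 0.14 (SE; adjusted p = 2.14e-12). Mcm3 (-3.06 ± 0.14) and Mcm2 (-2.69 ± 0.14) of the same helicase and the histone chaperone Chaf1a (-2.55 ± 0.13) fell as well. Rfc1, the large subunit of the clamp loader, was the exception, with 0.51 ± 0.18 (SE; adjusted p = 0.0203), a call that was lost without homeostasis 3 or 4 or without resolution 3 or 4. Ccna2, Kif14, Exo1, Neil3 and Racgap1 were named by a rule that picked falls in the third of genes with the lowest GC content. Their direction is therefore no test of the GC trend. Ccna2, the cyclin of S phase and G2, was measured at 80.9, 87.2, 61.3 and 59.6 CPM in homeostasis 1 to 4 and 4.18, 3.51, 5.98 and 4.63 CPM in resolution 1 to 4, with -3.98 ± 0.19, and -4.13 with GC offsets.

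Many genes of mitosis carry a short element near the start that binds the DREAM and B-Myb complexes, the cell cycle genes homology region (CHR), searched here as TTTGAA on both strands. It was found in 16 of 22 windows of the mitosis list (72.7%) and in 1354 of all 10986 (12.3%). For DNA replication the count was 3 of 30 (10%), and for genes at least 2-fold lower in both fits 134 of 616 (21.8%). The 3 mitosis genes with a match in the 200 bases before the start that had the highest CPM in homeostasis are given in the same way as above.
Cdk1 (chr10:69352913-69353112, minus strand): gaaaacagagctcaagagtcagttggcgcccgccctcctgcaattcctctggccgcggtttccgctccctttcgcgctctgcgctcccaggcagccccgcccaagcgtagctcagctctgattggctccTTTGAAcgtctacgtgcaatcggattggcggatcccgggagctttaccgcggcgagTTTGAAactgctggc
Cdc20 (chr4:118437344-118437543, minus strand): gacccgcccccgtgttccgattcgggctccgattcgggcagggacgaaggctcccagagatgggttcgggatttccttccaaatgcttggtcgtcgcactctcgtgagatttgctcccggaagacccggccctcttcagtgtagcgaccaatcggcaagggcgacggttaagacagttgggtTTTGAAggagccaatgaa
Top2a (chr11:99024190-99024389, minus strand): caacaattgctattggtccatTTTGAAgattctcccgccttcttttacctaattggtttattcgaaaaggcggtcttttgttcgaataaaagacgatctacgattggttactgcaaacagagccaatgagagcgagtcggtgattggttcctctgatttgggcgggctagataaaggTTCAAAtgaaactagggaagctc
The matches began 71 and 15 bases before the start in Cdk1, 18 in Cdc20, and 179 and 23 in Top2a, where the nearer one is on the opposite strand. Cdk1, the kinase of mitosis, went from 211 ± 13.3 to 26.1 ± 3.9 CPM with -3.01 ± 0.14, and Top2a, the topoisomerase of dividing cells, from 128 ± 19.1 to 39.2 ± 12 CPM with -1.71 ± 0.19.

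**Figure D2:**
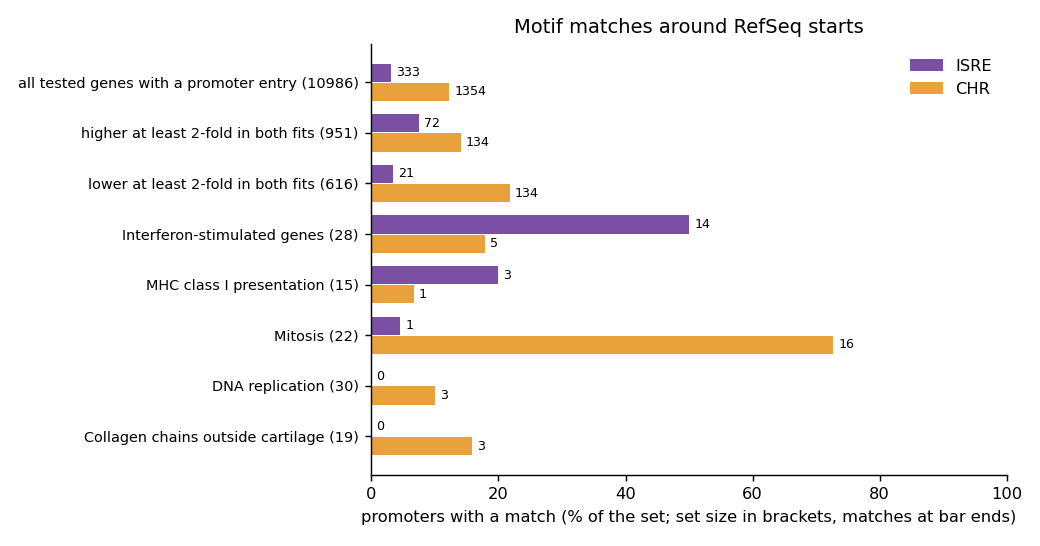
Share of RefSeq promoter windows of 300 bases with at least 1 match to the ISRE or to the CHR, by gene set, with the set size in brackets and the number of windows with a match at the bar. The ISRE is in 14 of 28 windows of the interferon list and 3.03% of all, and the CHR in 16 of 22 windows of the mitosis list and 12.3% of all.

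Inhibitors of cyclin-dependent kinases and targets of p53 were divided. In this list 9 of 22 tested members rose and 5 fell, and 12 rose and 5 fell with GC offsets. Cdkn2a, whose products restrain CDK4 and MDM2, was measured at 58.9, 46.6, 66.4 and 70.2 CPM in homeostasis 1 to 4 and 180.2, 192, 184 and 173 CPM in resolution 1 to 4, with 1.59 ± 0.14 (SE; adjusted p = 3.40e-08). Ccng1 (2.13 ± 0.17) and Trp53inp1 (2.74 ± 0.24), targets of p53, rose, and so did Mdm2 (1.41 ± 0.17), its ubiquitin ligase. Cdkn2c fell with -1.67 ± 0.16, and Trp53 itself fell with -1.07 ± 0.15. Cdkn1a, or p21, rose with 0.44 ± 0.17.

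Replication-dependent histone genes moved the other way from the replication genes, in a list that was added after seeing the data. Of 52 tested, 38 rose and 6 fell, with the same counts with GC offsets and a median of 1.37, and 1.53 with GC offsets. Hist1h4h went from 1.29 ± 0.379 to 8.41 ± 0.351 CPM with 2.70 ± 0.23, and Hist1h2ap from 8.14 ± 1.16 to 0.778 ± 0.335 CPM with -3.39 ± 0.27. The 6 that fell were all H2A genes, Hist1h2ab, Hist1h2ad, Hist1h2ag, Hist1h2ah, Hist1h2ao and Hist1h2ap. These messages normally end in a stem-loop and not in a poly(A) tail, the libraries were poly(A)-enriched, and the copies are near-identical, so the values are uncertain.

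**Figure D3:**
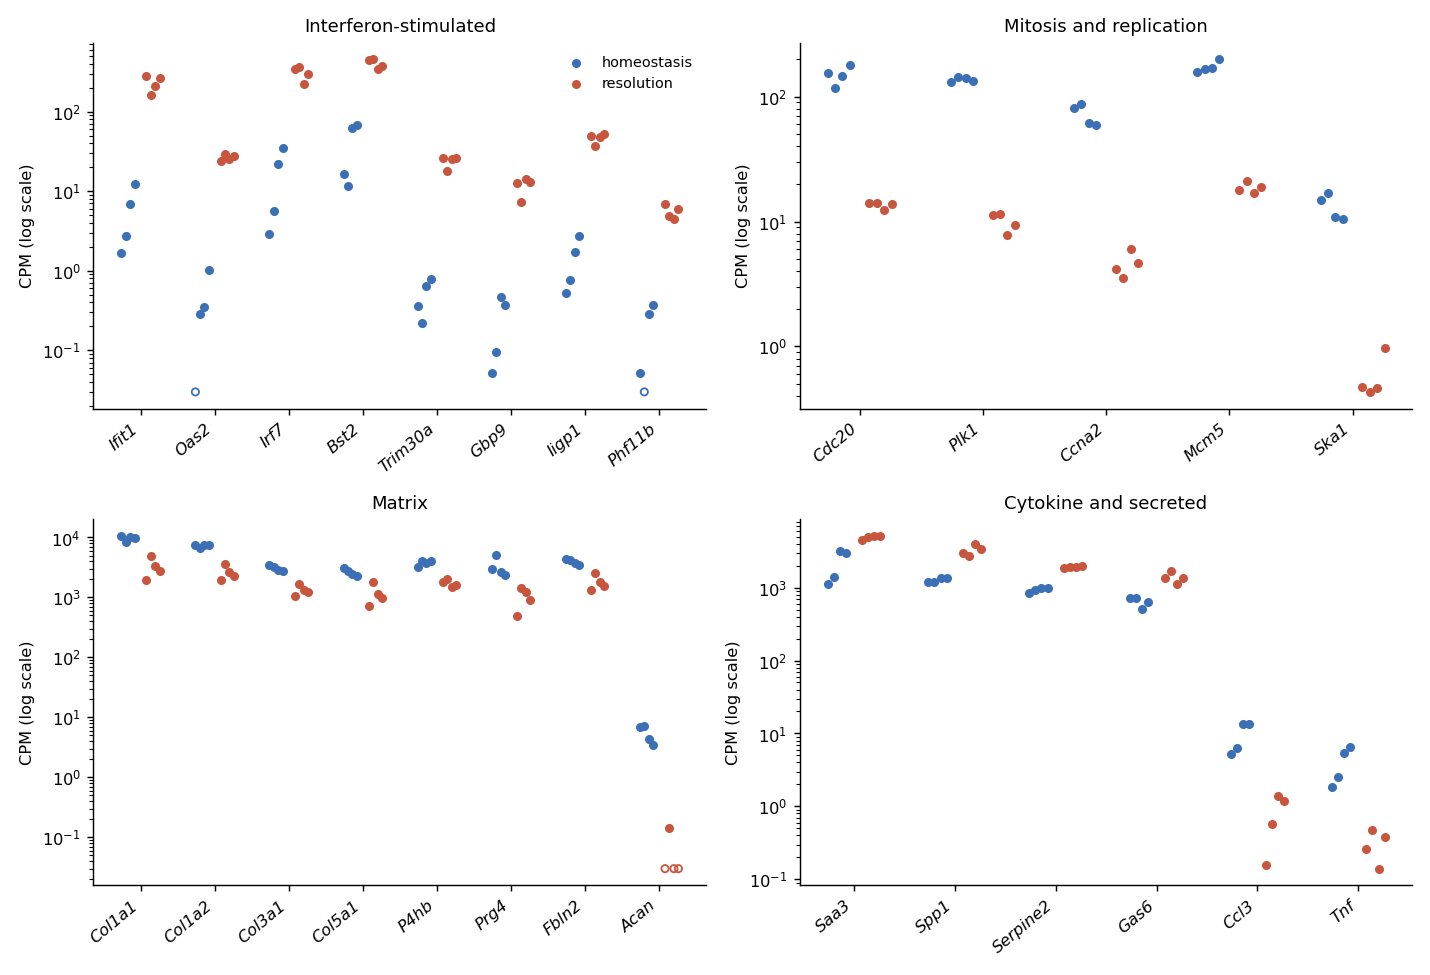
CPM (log scale) of single genes in the 4 homeostasis (blue) and 4 resolution (red) libraries, replicates from left to right, with 0 counts as open circles at the foot of the axis. The groups do not overlap in any gene shown, which was a condition for naming most of them. Resolution is higher for the interferon-stimulated genes and for Saa3, Spp1, Serpine2 and Gas6, and lower for the others.

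Collagen genes had the largest counts among the falls. Of 23 chains outside cartilage, 17 fell and 2 rose, with a median of -1.20, and -0.95 with GC offsets, where 12 fell and 2 rose. Their summed level ran from 37613 to 42262 CPM in homeostasis and 14218 to 25506 CPM in resolution. Col1a1, the main chain of fibrillar collagen, was measured at 10557, 8354, 10196 and 9903 CPM in homeostasis 1 to 4 and 1971, 4824, 3349 and 2720.2 CPM in resolution 1 to 4, with -1.60 ± 0.19 (SE; adjusted p = 1.38e-06) and -1.33 with GC offsets. Col1a2 was measured at 7497, 6618, 7448 and 7351 CPM in homeostasis 1 to 4 and 1918, 3624, 2655 and 2271 CPM in resolution 1 to 4, with -1.47 ± 0.16, and Col3a1 went from 3089 ± 323 to 1322 ± 245 CPM with -1.22 ± 0.16. In Col1a1 and Col1a2 resolution 2 was the highest resolution library, and resolution 1 the lowest. The chains of the beaded collagen VI fell more, with -1.97 ± 0.16 for Col6a1, -2.12 ± 0.16 for Col6a2 and -2.72 ± 0.26 for Col6a3, the last measured at 1222, 1207, 613 and 541 CPM in homeostasis 1 to 4 and 87.4, 164, 164 and 129 CPM in resolution 1 to 4. Col8a1 (1.28 ± 0.14) and Col23a1 (2.28 ± 0.29) were the 2 that rose. Collagen transcripts are rich in GC, with a median of 56.4% in this list, and the 5 chains that passed only without the offsets were Col4a1, Col4a2, Col5a2, Col16a1 and Col18a1.

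Enzymes that modify, fold and crosslink collagen fell in part: 16 of 29 fell and 2 rose, and 15 fell and 5 rose with GC offsets. In both fits 13 fell and 1 rose, P3h2, and 1 rose in the fit without the offsets when homeostasis 1 or 3 or resolution 1, 3 or 4 was left out. P4hb, a disulphide isomerase and subunit of prolyl 4-hydroxylase, was measured at 3158, 4024, 3817 and 4104 CPM in homeostasis 1 to 4 and 1818, 2009, 1491 and 1614 CPM in resolution 1 to 4, with -1.12 ± 0.13 (SE; adjusted p = 6.28e-07). Serpinh1, the collagen chaperone HSP47, fell from 2277 ± 133 to 910.1 ± 149.9 CPM with -1.32 ± 0.14, and the lysyl oxidase Loxl4 from 120.3 ± 23.7 to 40.2 ± 2.09 CPM with -1.58 ± 0.15. Lox, the founding member of that family, rose with 0.60 ± 0.13, but not with GC offsets, at 0.15 (adjusted p = 0.162).

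Elastic fibre genes fell in 10 of 18 cases and rose in 3, and in 9 and 4 with GC offsets. Eln, elastin, had 4.48, 3.17, 1.16 and 1.97 CPM in homeostasis 1 to 4 and 0.106, 0, 0 and 0 CPM in resolution 1 to 4, or 249 counts in all of homeostasis and 2 in all of resolution, and no fold is given. Fbn2, a fibrillin, was measured at 13.4, 13.8, 8.44 and 6.14 CPM in homeostasis 1 to 4 and 0.317, 0.672, 2.06 and 0.626 CPM in resolution 1 to 4, with -3.48 ± 0.41. Fbln2, a fibulin, fell from 3995 ± 413 to 1797 ± 514 CPM with -1.15 ± 0.16, and Efemp1, fibulin-3, rose from 154 ± 44.6 to 401 ± 39.3 CPM with 1.38 ± 0.16. Fn1, fibronectin, did not pass (-0.56 ± 0.24, adjusted p = 0.0604).

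Proteoglycan and hyaluronan genes were mixed, with 9 of 18 falling and 6 rising, and all 9 but only 4 of the 6 did so in both fits. Prg4, lubricin, the lubricant of the synovial lining, was measured at 2945, 5157, 2642 and 2392 CPM in homeostasis 1 to 4 and 486, 1412, 1246 and 913 CPM in resolution 1 to 4, with -1.70 ± 0.27 (SE; adjusted p = 3.32e-05). Dcn, decorin, moved the other way, at 104, 109.5, 219.9 and 222 CPM in homeostasis 1 to 4 and 835, 769.7, 1103 and 994 CPM in resolution 1 to 4, with 2.50 ± 0.23 (SE; adjusted p = 3.17e-08) and 1.70 with GC offsets. Its relative Lum, lumican, fell from 33.8 ± 2.82 to 14.4 ± 3.77 CPM with -1.23 ± 0.18, although its GC content is also low, and Prelp rose with 1.42 ± 0.18. Tnfaip6, a TNF-induced protein that binds hyaluronan, fell from 8.56 ± 1.24 to 1.81 ± 0.658 CPM with -2.24 ± 0.26. Bgn, biglycan, lies on the X chromosome and was left out.

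Basement membrane genes fell in 9 of 17 cases and rose in 1, and in 6 and 2 with GC offsets. Lama5, a laminin chain, fell from 73.4 ± 6.61 to 14.3 ± 6.52 CPM with -2.36 ± 0.25, Nid2, a linker of laminin and collagen IV, from 116 ± 8.17 to 31.9 ± 6.35 CPM with -1.87 ± 0.14, and Agrn, agrin, was the one that rose, with 1.62 ± 0.22. Among 21 matricellular proteins 11 fell and 2 rose, 9 fell and 4 rose with GC offsets, and 7 fell and 2 rose in both fits. Without homeostasis 3 or without resolution 3 or 4 the count of rises was 1. Thbs4, a thrombospondin of tendon and injured tissue, was measured at 485, 586, 429.7 and 527 CPM in homeostasis 1 to 4 and 97.3, 147, 102 and 107 CPM in resolution 1 to 4, with -2.16 ± 0.16 (SE; adjusted p = 1.81e-09). Spp1, osteopontin, was measured at 1185, 1209.9, 1369 and 1352 CPM in homeostasis 1 to 4 and 2988, 2670.2, 3913 and 3368 CPM in resolution 1 to 4, with 1.34 ± 0.13 (SE; adjusted p = 1.44e-07), which became 0.81 with GC offsets. Among matrix proteases and their inhibitors 11 of 28 fell and 6 rose, and 12 fell and 7 rose with GC offsets. Both fits called 10 as lower and 3 as higher. Adamts1, an aggrecanase, fell with -1.31 ± 0.16, and Plat, tissue plasminogen activator, with -1.15 ± 0.16. Serpine2, an inhibitor of thrombin and plasminogen activators, rose from 938 ± 79 to 1923 ± 46 CPM with 1.04 ± 0.13. Mmp3, stromelysin, did not pass at -0.58 ± 0.25 (adjusted p = 0.0537), and Mmp13, collagenase 3, rose with 0.67 ± 0.22 but was at 0.01 with GC offsets (adjusted p = 0.979).

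Contractile genes held a few clear rises: 6 of 17 tested members rose and 3 fell, and 9 rose and 1 fell with GC offsets. Without resolution 2, 6 fell. Myh11, the smooth muscle myosin, was measured at 9.01, 13.8, 5.61 and 5.23 CPM in homeostasis 1 to 4 and 50.9, 33.4, 41.4 and 38.1 CPM in resolution 1 to 4, with 2.27 ± 0.24 (SE; adjusted p = 3.51e-07). The kinase Mylk (1.35 ± 0.17), leiomodin Lmod1 (1.27 ± 0.17) and the integrin Itga8 (2.53 ± 0.21) rose. Acta2, smooth muscle actin, did not pass at -0.31 ± 0.15 (adjusted p = 0.0866), nor did Tagln at -0.24 ± 0.15 (adjusted p = 0.21). Integrins and other adhesion molecules depended on the GC term, since 11 of 26 rose and 10 fell without it and 4 rose and 6 fell with it. Itga3 fell with -1.39 ± 0.17 and -1.09 with GC offsets, and Cdh11, the cadherin of synovial lining, rose with 0.94 ± 0.16 and 0.61.

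Markers of lining and of sublining fibroblasts moved in both directions. For the lining, Prg4, Tspan15 (-1.75 ± 0.30) and Hbegf (-0.65 ± 0.14) fell and Cd55 (1.56 ± 0.16) rose, of 6 tested. For the sublining, 4 of 10 rose and 3 fell, and 2 rose without homeostasis 1 or 2. Ly6a, or Sca-1, was measured at 129, 90.1, 64.9 and 74.8 CPM in homeostasis 1 to 4 and 358, 327, 356 and 353 CPM in resolution 1 to 4, with 1.96 ± 0.17 (SE; adjusted p = 1.54e-08), and Cd34 rose from 18.8 ± 2.67 to 39.2 ± 3.21 CPM with 1.06 ± 0.16. Thy1, the surface glycoprotein CD90, fell from 161 ± 27.6 to 62 ± 8.96 CPM with -1.38 ± 0.15. Of 15 fibroblast identity genes, which include the fibrillar collagens, 8 fell and 3 rose, and their summed level was 37718 to 46644 CPM in homeostasis and 16418 to 29300.3 CPM in resolution. Pdgfra, a growth factor receptor of fibroblasts, did not pass at 0.11 ± 0.22 (adjusted p = 0.715).

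Secreted factors that act on vessels are of interest because the study concerns endothelial cells. In this list 10 of 31 tested members rose and 4 fell, and 15 rose and 4 fell with GC offsets, with a median of 0.21, and 0.33 with GC offsets. Of all genes tested, 27.5% rose and 25.1% fell, and 28.2% and 22.8% with GC offsets. The 4 members with the smallest adjusted p were growth factors that rose. Hgf, hepatocyte growth factor, was measured at 24.1, 18.6, 17 and 18.5 CPM in homeostasis 1 to 4 and 90.9, 76.3, 119 and 93.7 CPM in resolution 1 to 4, with 2.28 ± 0.16 (SE; adjusted p = 7.91e-10). Fgf2, basic fibroblast growth factor, was measured at 9.17, 5.77, 8.33 and 6.74 CPM in homeostasis 1 to 4 and 46.7, 31.1, 57.3 and 49.7 CPM in resolution 1 to 4, with 2.63 ± 0.20 (SE; adjusted p = 3.96e-09). Fgf10 rose from 3.86 ± 0.657 to 24.7 ± 3.76 CPM with 2.67 ± 0.17, and Igf1 from 3.52 ± 0.757 to 25.9 ± 3.02 CPM with 2.86 ± 0.17. All 4 have low GC content, and with GC offsets their values were 1.57 for Hgf, 2.01 for Fgf2, 2.02 for Fgf10 and 2.11 for Igf1, all passing. Vegfa, the main endothelial growth factor, fell with -0.35 ± 0.14, and was at -0.11 with GC offsets (adjusted p = 0.457). The angiopoietins Angpt1 (0.21 ± 0.20, adjusted p = 0.391) and Angpt2 (0.34 ± 0.27, adjusted p = 0.313) did not pass. Pdgfb (-2.13 ± 0.32), Angptl4 (-0.77 ± 0.18) and Efna1 (-1.23 ± 0.33) fell.

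Class 3 semaphorins guide axons and vessels through neuropilins and plexins. Sema3c was measured at 52.2, 32.3, 55.7 and 62.1 CPM in homeostasis 1 to 4 and 339.6, 231, 438 and 369 CPM in resolution 1 to 4, with 2.77 ± 0.21 (SE; adjusted p = 1.99e-09), and Sema3f went the other way, at 11.8, 9.28, 9.48 and 11.7 CPM in homeostasis 1 to 4 and 2.06, 2.98, 1.64 and 1.11 CPM in resolution 1 to 4, with -2.44 ± 0.24 (SE; adjusted p = 1.10e-07). In each of them the groups did not overlap. Over the list, 5 of 13 rose and 3 fell, but with GC offsets 2 rose and 3 fell, and the median changed sign from 0.22 to -0.05. Sema3a, Sema3d, Sema3e and Nrp1 passed as higher only without the offsets, and the count of rises fell from 5 to 2 without homeostasis 3 or 4 or without resolution 3 or 4.

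In the BMP and TGF-beta pathway 11 of 34 tested members rose and 8 fell, and 18 rose and 5 fell with GC offsets. The shares over all genes tested were 27.5% and 25.1%, and 28.2% and 22.8% with GC offsets. Bmp4, a ligand, was measured at 24.8, 26.9, 22 and 23.2 CPM in homeostasis 1 to 4 and 3.44, 3.12, 2.01 and 3.18 CPM in resolution 1 to 4, with -3.05 ± 0.20 (SE; adjusted p = 2.66e-10), and the joint ligand Gdf5 fell with -3.19 ± 0.40. The antagonist Grem1 rose from 37.3 ± 7.62 to 121 ± 33.3 CPM with 1.70 ± 0.20, the activin subunit Inhba from 179.6 ± 36.1 to 502 ± 110.5 CPM with 1.48 ± 0.17, and the receptor Tgfbr1 with 1.79 ± 0.21. In the Wnt list 8 of 24 tested members rose and 6 fell, and 5 rose without homeostasis 1 or without resolution 4. With GC offsets 8 rose and 7 fell, and both fits called 6 as higher and 6 as lower. The antagonists Sfrp2 (-1.98 ± 0.25) and Wif1 (-2.28 ± 0.49) fell, and Frzb (1.29 ± 0.20) and the Wnt deacylase Notum (1.65 ± 0.20) rose. Axin2, a common target of the pathway, did not pass at 0.23 ± 0.20 (adjusted p = 0.359).

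Genes of amino acid synthesis and the integrated stress response fell: 24 of 31 fell and 1 rose, and 22 and 2 with GC offsets. Psat1, of serine synthesis, was measured at 234, 218, 184 and 194 CPM in homeostasis 1 to 4 and 45.8, 39, 41.2 and 42.6 CPM in resolution 1 to 4, with -2.30 ± 0.13 (SE; adjusted p = 3.89e-11). Phgdh, the first enzyme of that route, fell with -2.08 ± 0.15, Shmt2 with -1.91 ± 0.15 and the transporter Slc7a5 with -2.30 ± 0.17. The regulator Atf4 fell with -0.63 ± 0.11. Slc7a11, the cystine transporter, was the one that rose, at 4.84, 4.34, 7.75 and 5.36 CPM in homeostasis 1 to 4 and 44.6, 27.5, 69.2 and 45.3 CPM in resolution 1 to 4, with 3.08 ± 0.28 (SE; adjusted p = 2.91e-08). Chaperones of the endoplasmic reticulum fell in 13 of 21 cases and rose in 1, and in 18 and 0 with GC offsets, and 2 rose without homeostasis 2 or resolution 2. Pdia6, a disulphide isomerase, fell from 1632 ± 152 to 587 ± 79.8 CPM with -1.48 ± 0.13, and Hyou1 from 714 ± 68.9 to 314 ± 56.2 CPM with -1.18 ± 0.13. Hspa5, or BiP, fell with -0.97 ± 0.14.

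Glycolysis and hypoxia genes fell in 23 of 30 cases and rose in 1, and in 22 and 2 with GC offsets. Slc16a3, the lactate exporter, was measured at 412, 266, 631 and 682 CPM in homeostasis 1 to 4 and 182, 209, 138 and 146 CPM in resolution 1 to 4, with -1.56 ± 0.22 (SE; adjusted p = 8.10e-06), and Tpi1, a glycolytic isomerase, went from 1173 ± 189 to 587 ± 92.4 CPM with -1.0 ± 0.14. Ndrg1, a hypoxia-responsive gene, fell from 44.6 ± 9.3 to 11.7 ± 2.34 CPM with -1.93 ± 0.18. Cholesterol and fatty acid synthesis fell in 15 of 31 cases and rose in 6, and in 11 and 4 with GC offsets. Both fits called 9 as lower and 3 as higher. Fasn, fatty acid synthase, fell with -1.06 ± 0.16. In lipid transport and storage 9 of 19 tested members rose and 4 fell, and 9 rose and 6 fell with GC offsets. Lpl, lipoprotein lipase, was measured at 35.8, 26.6, 32.1 and 27.6 CPM in homeostasis 1 to 4 and 202, 160.2, 255 and 240.5 CPM in resolution 1 to 4, with 2.81 ± 0.17 (SE; adjusted p = 8.41e-11), Plin2, of lipid droplets, rose with 1.05 ± 0.14, and the HDL receptor Scarb1 fell with -1.37 ± 0.15.

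NRF2 targets and antioxidant genes rose in 15 of 32 cases and fell in 6, and in 19 and 5 with GC offsets. Nqo1, a quinone reductase and a classical NRF2 target, was measured at 59.5, 41.2, 64.9 and 67.8 CPM in homeostasis 1 to 4 and 330.3, 289.6, 396 and 324 CPM in resolution 1 to 4, with 2.52 ± 0.17 (SE; adjusted p = 7.01e-10). Gpx3, the secreted glutathione peroxidase, rose from 74.2 ± 8.88 to 345 ± 51.2 CPM with 2.22 ± 0.14, Mgst1 with 1.96 ± 0.16 and Gclc, of glutathione synthesis, with 2.20 ± 0.23. Hmox1, haem oxygenase 1, did not pass at 0.24 ± 0.14 (adjusted p = 0.167). Lysosomal genes rose in 11 of 25 cases and fell in 2 (1 without homeostasis 4), and in 17 and 2 with GC offsets, and their summed level was 10184 to 12872 CPM in homeostasis and 15279.8 to 19137 CPM in resolution. Ctsl, a cathepsin, rose from 1026 ± 120.2 to 1868 ± 77.7 CPM with 0.86 ± 0.12, Ctsh with 0.90 ± 0.13 and Ctso with 2.15 ± 0.20, and Ctsc fell from 17.4 ± 1.91 to 3.83 ± 0.568 CPM with -2.18 ± 0.18.

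For the protein-coding genes of the mitochondrial genome the direction depended on the GC term. Of 13, 8 rose and 0 fell, with a median of 0.55. With GC offsets 1 rose and 5 fell, with a median of −0.20. The list has a median GC content of 37.1%. ND1, a subunit of complex I, was measured at 1483, 2138, 1648 and 1566 CPM in homeostasis 1 to 4 and 2974, 2340.5, 3814 and 3187 CPM in resolution 1 to 4, with 0.85 ± 0.16 (SE; adjusted p = 2.06e-04), and was at 0.07 with GC offsets (adjusted p = 0.661). ND4, of the same complex, had 0.75 ± 0.16 (SE; adjusted p = 4.61e-04) and −0.05 (adjusted p = 0.756). COX1, of complex IV, had 1.19 ± 0.18 (SE; adjusted p = 1.41e-05) and kept its call with GC offsets at 0.45 (adjusted p = 0.00979). Nuclear-encoded subunits of the respiratory chain fell in 24 of 70 cases and rose in 2, and in 19 and 6 with GC offsets. Of all genes tested, 25.1% fell, and 22.8% with GC offsets. Both fits called 11 of the 70 as lower, a share below the 18% of all genes, and 1 as higher. Without resolution 4 the count of falls was 14, and without homeostasis 3 or 4 or resolution 1, 3 or 4 the count of rises was 1. Atp5a1, of ATP synthase, fell from 1497 ± 143 to 947 ± 100.02 CPM with -0.66 ± 0.12. Cytosolic ribosomal proteins fell in 54 of 75 cases and rose in 1, and in 32 and 1 with GC offsets, with a median of -0.48, and -0.29 with GC offsets. In both fits 28 fell and 0 rose, and the count of rises was 0 without homeostasis 3 or 4 or resolution 1, 3 or 4 and 2 without homeostasis 2 or resolution 2. Rpl3 fell from 367 ± 55.2 to 175 ± 23.7 CPM with -1.07 ± 0.14, and Rpsa from 724 ± 110.3 to 385 ± 67.2 CPM with -0.91 ± 0.15. Processed copies of ribosomal protein genes are common in the genome, so their counts can be shared.

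**Figure D4:**
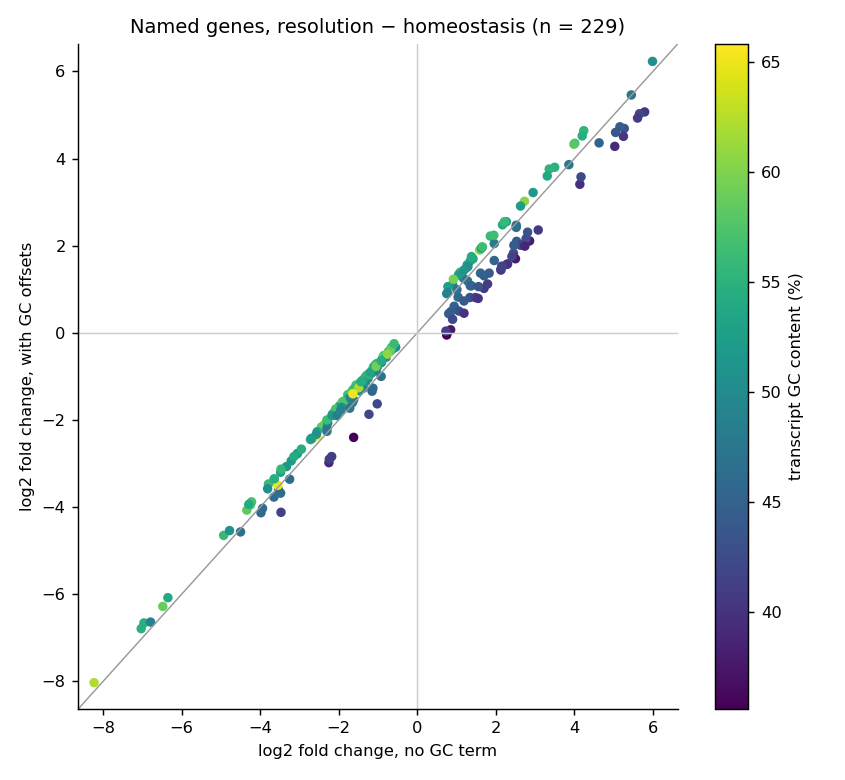
Log2 fold change of the 229 genes chosen for naming without a GC term (x) and with GC offsets (y), coloured by transcript GC content, with the line of equality. Low-GC genes lie below the line and high-GC genes above it, and the largest changes, such as Oas2 (5.99 and 6.23) and Plk1 (-3.79 and -3.47), keep their direction.

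Long non-coding RNAs were more often higher than lower, 275 (30.6%) against 89 (9.9%) of 899, and their median was 0.361, or 0.378 with GC offsets. Malat1, an abundant RNA of nuclear speckles, was measured at 600.4, 133, 584 and 168 CPM in homeostasis 1 to 4 and 1193, 839.95, 3465 and 2588 CPM in resolution 1 to 4, with 2.45 ± 0.75 (SE; adjusted p = 0.0205), and 1.83 with GC offsets (adjusted p = 0.0454). Its resolution libraries differ widely among themselves, and the call was lost without homeostasis 4 (2.20, adjusted p = 0.0548) or without resolution 3 (2.04, adjusted p = 0.057). Neat1, the scaffold of paraspeckles, rose with 1.59 ± 0.47. Zinc finger genes with Zfp symbols, a list added after seeing the data, rose in 148 of 330 cases and fell in 30, and in 115 and 24 with GC offsets, and their median GC content is 44.8%. Imprinted genes fell in 6 of 14 cases and none passed as higher, in both fits apart from 1 further fall with GC offsets. H19, a fetal growth-restricting RNA, was measured at 57.8, 88.8, 52.1 and 48.8 CPM in homeostasis 1 to 4 and 1.8, 2.74, 1.87 and 1.69 CPM in resolution 1 to 4, with -4.93 ± 0.23 (SE; adjusted p = 5.07e-12). Grb10, an adaptor of the insulin receptor, fell from 116 ± 39.1 to 28.2 ± 4.59 CPM with -2.04 ± 0.22, and Rian and Mirg, of the Dlk1 and Meg3 domain, fell with -1.62 ± 0.19 and -2.17 ± 0.30.

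Genes that record the position of a fibroblast in the body passed no more often than other genes in the fit without the GC term. Of 23 Hox genes, 5 rose and 2 fell, shares below the 27.5% and 25.1% of all genes tested, and 3 rose without resolution 3. With GC offsets 7 rose and 2 fell, against 28.2% and 22.8% of all genes. Hoxc10, a gene of the hind limb, fell from 2.84 ± 0.616 to 0.982 ± 0.539 CPM with -1.54 ± 0.27, Hoxc11 with -1.28 ± 0.29, and Hoxa13, of the distal limb, rose from 4.49 ± 1.16 to 7.75 ± 0.465 CPM with 0.78 ± 0.20. Among 24 other limb transcription factors 6 rose and 6 fell, shares close to those of all genes. With GC offsets 8 rose and 5 fell, and the median went from -0.063 to 0.002. Pitx1, a hind limb factor, was measured at 6.82, 5.8, 5.09 and 8.3 CPM in homeostasis 1 to 4 and 0.846, 1.1, 1.36 and 1.11 CPM in resolution 1 to 4, with -2.55 ± 0.22 (SE; adjusted p = 1.92e-08), and Tbx4, its partner in the hind limb, fell from 28.5 ± 3.71 to 17.2 ± 2.11 CPM with -0.73 ± 0.15. Tbx5, a fore limb factor, rose from 2.55 ± 0.904 to 5.9 ± 0.353 CPM with 1.19 ± 0.29. The labels do not name the joints sampled, and whether they were the same in both groups was not tested.

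Immediate early genes respond within minutes to growth factors, stress and handling. Here 5 of 27 tested members rose and 9 fell, and 9 rose and 4 fell with GC offsets. Myc fell from 65.9 ± 12 to 28.7 ± 4.55 CPM with -1.20 ± 0.15 and Jun from 90.2 ± 9.65 to 44.1 ± 6.03 CPM with -1.03 ± 0.13, and Dusp6, a phosphatase of ERK, rose with 0.75 ± 0.13. Klf6 rose with 0.90 ± 0.15, which became 0.31 with GC offsets. Fos did not pass, at 0.18 ± 0.17 (adjusted p = 0.381).

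Markers of other cell types were lower in resolution for several types. In bulk libraries, fewer cells of a type and less RNA per cell cannot be told apart. Macrophage markers fell in 11 of 17 cases and none rose, and their summed level was 157 to 204 CPM in homeostasis and 78.3 to 85.2 CPM in resolution. Marco, a scavenger receptor, was measured at 10.8, 18.2, 19.7 and 15 CPM in homeostasis 1 to 4 and 0.106, 0.144, 0.234 and 0 CPM in resolution 1 to 4, with -6.96 ± 0.40 (SE; adjusted p = 5.52e-11), and Tyrobp, an adaptor of myeloid receptors, went from 1.59 ± 0.566 to 0.122 ± 0.0831 CPM with -3.64 ± 0.43. Ptprc, or CD45, the general marker of blood cells, did not pass at -0.74 ± 0.58 (adjusted p = 0.293). Mrc1 was not lower (0.54 ± 0.40, adjusted p = 0.273). The falls of C1qa, C1qb and C1qc, of Ccl3 and of Tnf go with this list in the same libraries, and its part in them was not tested. Gzmb, a protease of cytotoxic lymphocytes, fell from 5.69 ± 3.26 to 0.374 ± 0.263 CPM with -3.94 ± 0.53. Gzmb was named by the rule that picked falls of genes with low GC content. Of 11 lymphocyte markers, however, 1 reached the test, and 4 had 0 counts in all 8 libraries.

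Cartilage markers held the largest fitted fall of all genes tested. Col2a1, the collagen of cartilage, was measured at 989, 838, 767 and 786 CPM in homeostasis 1 to 4 and 2.33, 4.03, 2.48 and 2.41 CPM in resolution 1 to 4, with -8.23 ± 0.22 (SE; adjusted p = 1.56e-15). Acan, the cartilage proteoglycan, had 7.03, 7.26, 4.39 and 3.44 CPM in homeostasis 1 to 4 and 0, 0.144, 0 and 0 CPM in resolution 1 to 4, or 515 counts in all of homeostasis and 3 in all of resolution. In this list 6 of 9 fell and 1 rose, Col11a2 (0.84 ± 0.30), a count of rises that was 0 without homeostasis 2 or resolution 2 or 3 and 2 without homeostasis 3 or resolution 1, and the summed level was 988 to 1279 CPM in homeostasis and 74.3 to 124 CPM in resolution, most of it Col2a1. Sox9, the chondrocyte transcription factor, fell with -0.78 ± 0.20, and Col11a1, which fibroblasts also express, from 186 ± 38.6 to 60.2 ± 15.2 CPM with -1.62 ± 0.19. The part of cartilage transcripts in the falls of the matrix lists was not tested, and Col2a1 and Acan are in none of those lists.

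Skeletal muscle markers fell in 7 of 9 cases. Myh3, the embryonic myosin, was measured at 4.53, 8.59, 3.93 and 4.54 CPM in homeostasis 1 to 4 and 0, 0.144, 0.0935 and 0 CPM in resolution 1 to 4, with -6.35 ± 0.59, and Myl1 gave 181 counts in all of homeostasis and 1 in all of resolution. Tnnt2, a troponin, went from 5.84 ± 2.19 to 0.205 ± 0.0937 CPM with -4.78 ± 0.40. Myog, a factor of muscle differentiation, had a mean of 0.972 ± 0.297 CPM in homeostasis and 0 counts in every resolution library. Of the endothelial markers 3 of 11 fell, a share close to the 25.1% of all genes tested, and 2 rose. Their summed level was not lower, at 218 to 318 CPM in homeostasis and 231 to 334 CPM in resolution. Erg (4.95 ± 0.62 to 0.821 ± 0.298 CPM), Cdh5 (3.21 ± 1.36 to 0.492 ± 0.314 CPM) and Kdr (4.17 ± 1.27 to 1.29 ± 0.465 CPM) fell and Tek (3.68 ± 0.888 to 7.45 ± 1.64 CPM) and Vwf rose (1.44 ± 0.36), and Pecam1 did not pass at -0.94 ± 0.46 (adjusted p = 0.0945). Schwann cell markers fell in 4 of 6 cases, with Sox10 from 12.5 ± 1.36 to 4.46 ± 1.29 CPM, and 1 rose, Cdh19 (0.74 ± 0.27), which was at -0.027 with GC offsets and lost its call without homeostasis 2, 3 or 4 or resolution 3. Pericyte markers fell in 3 of 6 cases, with Mcam from 41.5 ± 2.44 to 15.4 ± 2.42 CPM, and 1 rose, Notch3 from 29.5 ± 7.89 to 55.9 ± 19 CPM with 0.92 ± 0.21. Osteoblast markers were divided, with Alpl, an alkaline phosphatase, from 8.39 ± 2.24 to 32.7 ± 6.38 CPM and Dlx5 from 3.67 ± 1.29 to 0.472 ± 0.296 CPM. For osteoclasts, Ctsk rose from 230.1 ± 20.7 to 393 ± 38.8 CPM, and Acp5 did not keep its fall with GC offsets, at -0.59 and -0.25 (adjusted p = 0.27). Adipoq, of fat cells, fell from 0.869 ± 0.299 to 0.176 ± 0.131 CPM, while Lpl of the same list rose. S100a8 and Camp, of neutrophils, rose from 3.14 ± 1.05 to 17.2 ± 3.48 CPM and from 17.6 ± 8.6 to 45.7 ± 3.64 CPM. Of the 10 neutrophil symbols, 8 were too low to test, and 3 had 0 counts in all 8 libraries. Dsp, of epithelial desmosomes, rose from 1.6 ± 0.966 to 12.8 ± 4.6 CPM, but only 3 of 9 epithelial markers were tested, and the other 2 did not pass.

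**Figure D5:**
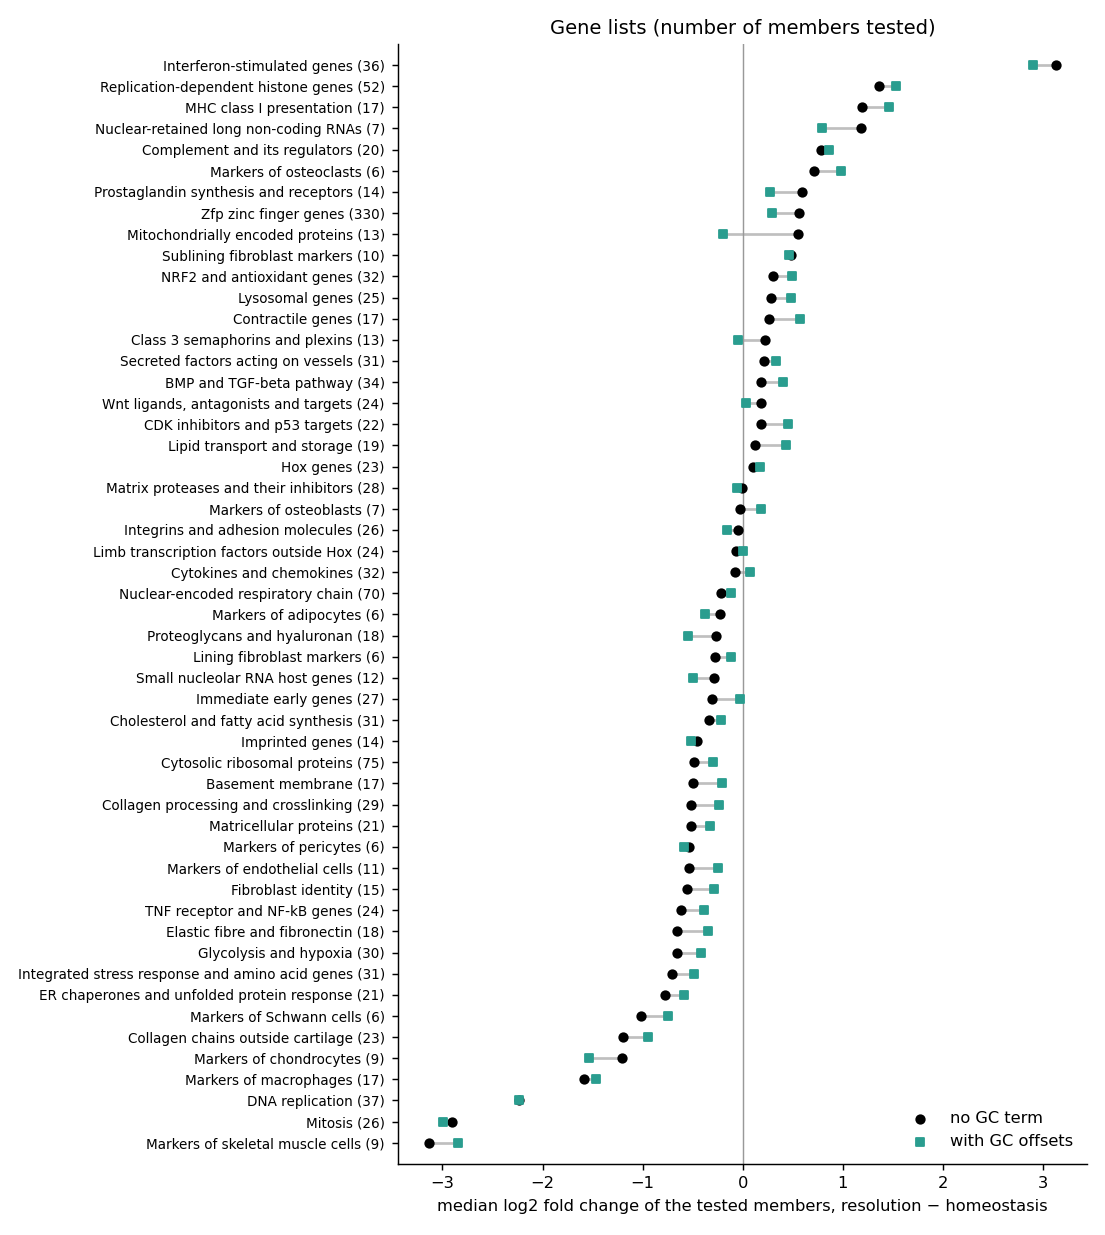
Median log2 fold change of the tested members of the 52 lists with at least 6 tested members, without a GC term (black) and with GC offsets (green), ordered by the first. Interferon-stimulated genes lead the rises and mitosis, DNA replication and skeletal muscle markers the falls in both fits, and the median changes sign with GC offsets in 5 lists, among them the mitochondrially encoded proteins.

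The remaining genes of high count or against the trend were of various kinds. Gas6, a ligand of the TAM receptors that mediate uptake of dead cells, rose from 644 ± 95.1 to 1372 ± 237 CPM with 1.09 ± 0.15. Dstn, an actin-depolymerizing protein, rose from 487 ± 48.4 to 1486 ± 152 CPM with 1.61 ± 0.13, and Itm2b, a membrane protein, from 456 ± 40.04 to 1160.3 ± 35.6 CPM with 1.35 ± 0.11. Among rises in the third of genes with the highest GC content, Ggt1, of glutathione breakdown, went from 0.537 ± 0.172 to 8.64 ± 1.51 CPM with 4.01 ± 0.27, Svop, a synaptic vesicle protein, from 1.86 ± 0.592 to 29.4 ± 4.77 CPM with 3.99 ± 0.23, and Npy, neuropeptide Y, from 0.592 ± 0.432 to 6.41 ± 1.3 CPM with 3.31 ± 0.31. Eef1a2, a translation elongation factor of muscle and neurons, rose from 1.96 ± 0.394 to 12.9 ± 1.66 CPM with 2.73 ± 0.19, and Oas3, a relative of Oas2, with 4.2 ± 0.43. These 8 genes were picked among those with no overlap between the groups, which held for 43% of all genes tested.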

How the data were processed

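The deposited data are 1 table of expected counts, estimated by the authors for each gene symbol in each library and not normalized. Per the submitters' processing notes the build was GRCm38.p3; no source used here names the aligner, the counter, its strand setting or the annotation. Not whole (tolerance 0) were 1.43% of values, and all were rounded to whole numbers. Of 36930 entries, 13 had no values and were left out, and summing 42 repeats with their partners gave 36875 symbols. Chromosomes came from an NCBI RefSeq table (GRCm38.p6) by symbol (29171) or synonym (1329), or from GENCODE names (319). The 1430 symbols on X or Y held 2.67 to 3.02% of counts and were left out. The 6056 without a chromosome held 0.508 to 0.841% and stayed in.

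Groups and replicate numbers came from the sample titles. Genes were kept by the default filter of edgeR (4.0.16, R 4.3.3) and scaled by TMM. The robust quasi-likelihood model was fitted to all 12 libraries with group as the term. Inflammation therefore shared in the filter, the scaling, the GC curves and the spread. With only the 8 libraries compared, 14058 genes were tested and 6961 passed. The p-values were adjusted by Benjamini-Hochberg with a threshold of 0.05. The biological coefficient of variation was 18.65% over the 12 libraries. GC content and length came from the longest GENCODE vM21 transcript, for 13689 genes, and GC offsets from natural splines with 5 degrees of freedom. On simulated data with 14336 genes, 88.8% of 98 genes changed by 1 log2 unit and 100% of 102 changed by 2 were recovered, and 0.08% of unchanged genes were called. With a GC slope difference of −0.3 put in (14328 genes), 1.41% of unchanged genes were called without offsets and 0.11% with them. That slope is smaller than the −0.529 of the real libraries, and it did not vary within a group. These shares therefore do not measure how many real calls follow the GC trend. Genes were named by a rule: Tnf, the 10 largest rises and falls, 8 high-GC rises and 8 low-GC falls, 8 abundant rises and 8 abundant falls, all with no overlap between groups and a mean of 5 CPM or more in the higher one, and up to 4 members of each list by adjusted p. Other members of lists were named after their values were seen. Some genes that met the rule are not reported here. The members, the 52 lists with 1192 symbols and the tests were chosen with earlier results of these data known, and 3 further lists were added after seeing the data. Of the symbols, 18 were matched by alias and 3 were not in the table. Between 2 libraries of 1 group the reduced chi-square ran from 11.2 to 105.9, so no pair agreed within sampling noise. Resolution and homeostasis libraries of the same number did not deviate together (correlations −0.005, −0.109, −0.012 and −0.234), so the numbers were not taken as pairs. Alternatives were other scalings, filters, DESeq2 (1.42.0), GC and length offsets, fewer libraries and the replicate block.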

Additional observations from a re-analysis of the deposited data

Results flagged for a closer look

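Over the 229 named genes and the GC slopes, 460 groups of 4 libraries were screened. In 26 of them (5.65%) a library stood apart by Dixon's ratio at the 95% level. The genes share libraries and many were picked for no overlap between groups, so this share cannot be set against chance. Resolution 2, the library whose GC slope differs from the others of its group, accounted for 14 of the 26. It was low for Trim30a (17.8 CPM, others 25.3 to 25.9), Dstn (1260.1, others 1538 to 1577), Ly6a (327, others 353 to 358) and Klf6 (39.0, others 58.2 to 58.3). It was high for Col2a1 (4.03, others 2.33 to 2.48), Psd2 (7.73, others 5.24 to 5.30), Mmp23 (39.7, others 29.9 to 30.8), Hyou1 (398, others 280.1 to 299), Ndrg1 (15.2, others 10.2 to 10.7), Ctsl (1985, others 1823 to 1835), Jun (53.02, others 39.95 to 41.7) and Alpl (42.3, others 29.2 to 29.7). It was the only resolution library with any counts of Acan (0.144 CPM) and of Myl1 (0.048 CPM).

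Resolution 1 stood apart for Saa3 (4529.6 CPM), Hoxb9 (2.43 CPM) and Eln (0.106 CPM, the other 3 at 0), and resolution 4 for Ska1 (0.964 CPM), Eef1a2 (10.5 CPM), Loxl4 (43.4 CPM), Foxd3 (1.45 CPM) and Mcam (11.8 CPM). In homeostasis, library 2 stood apart for Myh3 (8.59 CPM), Col1a2 (6618 CPM) and Lmod1 (48.1 CPM), and library 1 for Atp6v0d2 (0.0521 CPM). In none of these genes did the library that stood apart reach the range of the other group, which was a condition for naming many of them.

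Genes on X and Y were outside the comparison, and there Xist had a mean of 180 CPM in resolution against 11 CPM in homeostasis, with the 4 Y-linked genes at 0 counts in resolution.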

How the results depend on the processing

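Over 24 alternative settings the number of genes that passed lay within 1.5 times of 7675, with 1 exception: 3791 passed (1967 higher, 1824 lower, 1287 at least 2-fold higher) when resolution 2 was compared with homeostasis 1 and 2, which uses 3 of the 8 libraries and was added after seeing the data. With a filter of at least 5 CPM, which leaves fewer genes to test, 1441 were at least 2-fold higher and 710 at least 2-fold lower. Leaving out single libraries gave 6804 to 8197 genes. Scaling by library size alone moved the median of all genes from 0.003 to 0.124 (4665 higher, 2870 lower). The difference in GC slope ranged from −0.637 to −0.448 without single libraries, with an exact permutation p of 0.0571 without any 1 homeostasis library. The replicate number as a block gave 7250 genes (3815 higher, 3435 lower), 7196 of them shared, and of the named genes only Acp5 lost its call (adjusted p = 0.0594). Of 229 named genes, 223 kept direction and call with GC offsets. ND4 reversed without passing, to −0.0505 (GC offsets), −0.0437 (GC and length offsets) and −0.0631 (GC offsets without homeostasis 3 and 4), ND4L to −0.11 (GC and length offsets) and Acp5 to 0.18 (resolution 2 against homeostasis 1 and 2); the cause of the last was not tested. In that last comparison 35 named genes lost their call. Counts of lists moved by over 1.5 times in 27 of 110 cases with GC offsets, in 29 with GC offsets without homeostasis 3 and 4 and in 48 with resolution 2 against homeostasis 1 and 2. Bglap2, Sp7 and Acp5, all of low level, lost their calls without single libraries.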
